A study of Homo sapiens with 21 samples.

Results

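Most of the genes described here make cholesterol and fatty acids or are known targets or regulators of the sterol regulatory element-binding proteins (SREBPs). The list also holds the sterol exporters ABCA1 and ABCG1 and the ubiquitin ligase MYLIP. The members were chosen by name as a fixed list of 37 genes, out of 61541 genes in the gene table and 57300 gene names in the exon-bin counts. All 37 were found in both. This list and the further lists set beside it were chosen with earlier results of these data known. Their shares beside those of all genes are therefore descriptions. The libraries came from K562, an established human erythroleukaemia line that the labels describe as derived from bone marrow, grown in RPMI medium with fetal bovine serum. RNA of 21 libraries was sequenced, with 3 libraries in each of 7 groups. The first experiment held 3 groups, with the genotype labels empty vector, MYB overexpression and NMYB overexpression. An enhancer upstream of MYB gives rise to a pair of enhancer RNAs, and in the 34kn experiment cells overexpressing one of them were compared with their own controls (labelled 34knContol and WT). The 34kp experiment did the same for the other enhancer RNA, again with its own controls (34kpContol, WT). The series' text describes overexpression of MYB and of a form lacking part of its N terminus, and it asks which genes the isoforms affect and what the enhancer RNAs do to exon usage. The labels name no vector, no time after transfer and no clone. Whether the replicates came from separate cultures is not stated either, and the p-values therefore rest on a spread between libraries that may be technical.

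SREBPs are made as membrane proteins of the endoplasmic reticulum, where SCAP escorts them and the INSIG proteins hold the complex back while sterols are plentiful. When sterols run low, the complex moves to the Golgi, the transcription factor part is cut free, and it raises genes of the mevalonate, sterol and fatty acid pathways. SREBF2 is known mainly for sterol genes and SREBF1 mainly for fatty acid genes. Growing leukaemia cells in culture use these pathways for new membrane.

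Gene counts summed to 16552237 to 24462819 per library and bin counts to 36563252 to 41243796. Levels are given as CPM, the usual library-scaled count, after TMM scaling. For the bins they are sums over the exon bins of a gene, in which a read over several bins counts in each. The 8 erythroid markers in the gene table (GATA1, TAL1, KLF1 and others) were all above 1 CPM. Their summed level was 2338 to 2381 CPM with empty vector, 2030 to 2088 in the libraries labelled MYB and 2058 to 2110 in those labelled NMYB. The 5 lymphoid markers summed to at most 5.61 CPM and the 5 adipocyte and hepatocyte markers to at most 0.834 CPM in any of the 21 libraries, with MS4A1 and FABP4 at 0 in all of them. The summed level of 5 monocyte and macrophage markers was 24.69 to 29.97 CPM with empty vector, 33.9 to 38.6 with MYB and 38.1 to 40.8 with NMYB. The 6 fibroblast and epithelial markers, of which 1 of 3 tested fell with MYB and 1 of 3 with NMYB, summed to 72.4 to 77.1 CPM with empty vector, 63.7 to 67.6 with MYB and 66.9 to 73.1 with NMYB. The lymphoid sum was 5.20 to 5.61 CPM with empty vector, 3.35 to 4.39 with MYB and 4.24 to 5.47 with NMYB. Both sums were wholly lower with MYB and overlapped with NMYB. The part of these shifts in the results was not tested, and in bulk RNA fewer cells of a type and less RNA per cell cannot be told apart. MYB itself stood at 210.3 to 218.9 CPM with empty vector, 221.9 to 230.8 in the libraries labelled MYB and 201.8 to 217.2 in those labelled NMYB. Neither difference passed the test (log2 fold change 0.08, adjusted p = 0.230, and −0.025, adjusted p = 0.727, edgeR), so these groups are called by their labels throughout.

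In the libraries labelled MYB, most of the cholesterol and fatty acid synthesis genes were lower than with empty vector. Of 35 members tested, 28 fell and 1 rose at an adjusted p below 0.05 (edgeR's quasi-likelihood test), against 12.7% of all 15823 genes that fell and 9.62% that rose. The median log2 fold change of the members was −0.44, and that of all genes tested was 0.005. Both sterol exporters of the list, ABCA1 and ABCG1, were too low to test. The groups did not overlap, with every MYB library below every empty-vector library, in 28 of the 35 members, and this held for 20.7% of all genes. Under library totals alone the share of higher genes among all calls moved from 43.13% to 56.77%, while 27 members still fell.

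**Figure D1:**
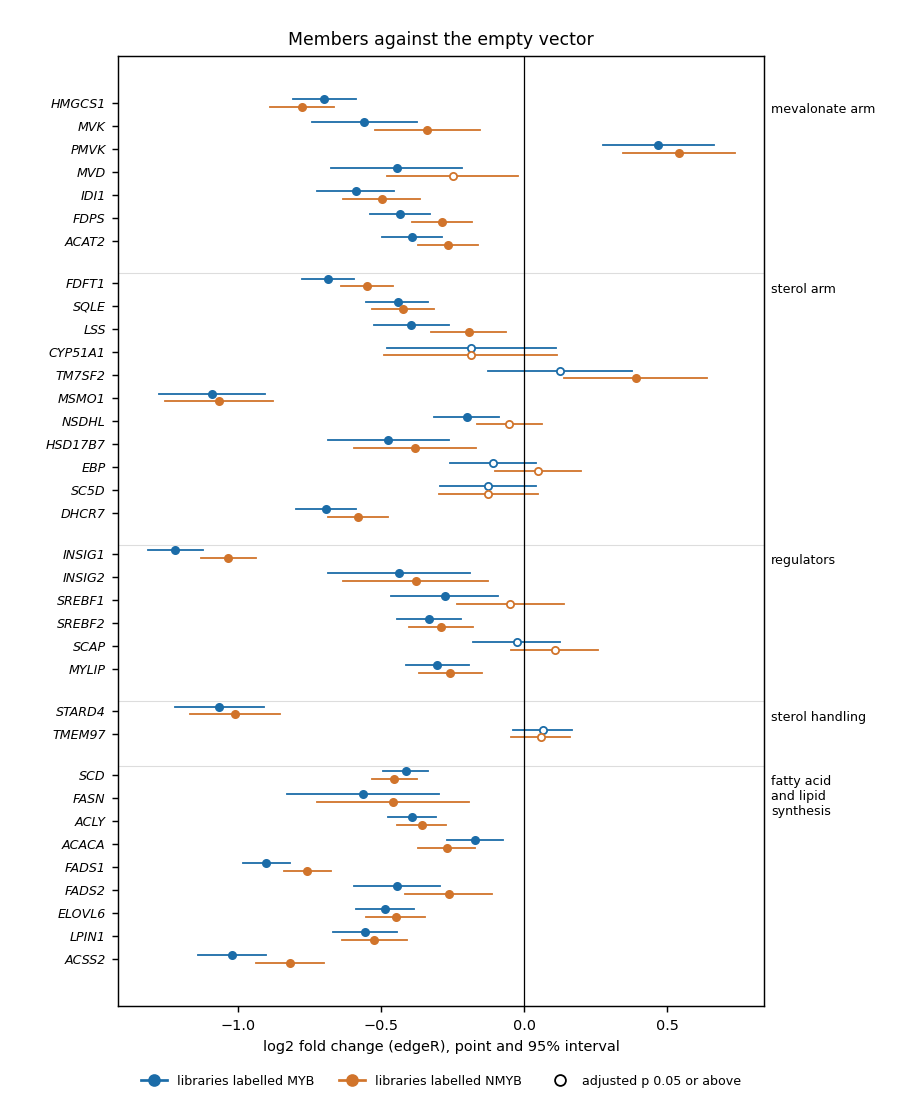
Log2 fold change against the empty vector (x axis) of the 35 members tested (y axis, grouped by role), for the libraries labelled MYB (blue) and NMYB (orange), with 3 libraries per group. Points are edgeR estimates, bars are 95% intervals, and open points did not pass an adjusted p of 0.05. Most points lie left of 0, with PMVK to the right.

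The mevalonate arm, which builds isoprenoid units from acetyl-CoA, was lower in 6 of its 7 members, with a median of −0.445 on the log2 scale. HMGCS1, which makes HMG-CoA (chromosome 5, 43289395 to 43313512, minus strand), was at 173.8, 160.0 and 161.4 CPM with empty vector and at 99.9, 98.1 and 107.5 CPM in the MYB libraries. Every MYB library was lower, and the gene fell by 0.70 on the log2 scale (95% interval −0.81 to −0.59, adjusted p = 2.04e-08, edgeR). MVK, the mevalonate kinase, fell by 0.56 and IDI1, which isomerizes the isoprene unit, by 0.59. MVD, the diphosphomevalonate decarboxylase, was called lower at −0.445. FDPS, the farnesyl diphosphate synthase, fell by 0.43 and ACAT2, the cytosolic thiolase that opens the pathway, by 0.39. PMVK, the phosphomevalonate kinase between MVK and MVD, moved the other way. It was at 10.0, 11.5 and 10.1 CPM with empty vector and at 15.4, 14.0 and 14.2 CPM in the MYB libraries. These groups did not overlap either, and PMVK rose by 0.47 (95% interval 0.28 to 0.66, adjusted p = 0.00113, edgeR).

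In the sterol arm, from squalene to cholesterol, 7 of 11 members fell. MSMO1, the methylsterol monooxygenase that removes methyl groups from the sterol ring (chromosome 4, 165327623 to 165343160, plus strand), was at 51.0, 48.2 and 47.0 CPM with empty vector and at 21.8, 23.0 and 24.0 CPM in the MYB libraries. All MYB values lay below all empty-vector values, at a fold of 0.47 (log2 −1.09, 95% interval −1.28 to −0.91, adjusted p = 6.24e-08, edgeR). DHCR7, the last step of one branch to cholesterol, was at 194.7, 211.5 and 198.6 CPM and fell to 128.9, 124.0 and 121.2 CPM (log2 −0.69, 95% interval −0.80 to −0.59, adjusted p = 1.07e-08, edgeR). FDFT1, the squalene synthase, went from 282.0, 270.3 and 278.4 CPM to 176.7, 170.0 and 170.0 CPM (log2 −0.685, adjusted p = 1.34e-09, edgeR). Neither gene's groups overlapped. HSD17B7, a reductase of sterol demethylation, fell by 0.475, SQLE, the squalene epoxidase, by 0.44, LSS, the lanosterol synthase, by 0.39 and NSDHL, a dehydrogenase of the same demethylation steps, by 0.20. CYP51A1 at −0.18, EBP at −0.11, SC5D at −0.13 and TM7SF2 at 0.125 did not pass the test. Adjusted p ranged over these from 0.290 for SC5D to 0.5004 for TM7SF2.

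The regulators held the largest fall among the members. INSIG1, the retention protein of the SREBP and SCAP complex (chromosome 7, 155297776 to 155310235, plus strand), was at 246.2, 240.2 and 235.2 CPM with empty vector and at 101.5, 102.1 and 106.4 CPM in the MYB libraries. The MYB libraries stood close together and far below the empty-vector libraries, with a fold of 0.43 (95% interval 0.40 to 0.46, adjusted p = 8.21e-13, edgeR). INSIG2, its paralog, was much lower in both groups, at 9.56, 9.39 and 9.44 CPM with empty vector and 7.04, 7.17 and 6.74 CPM with MYB, again without overlap (log2 −0.44, adjusted p = 0.0117, edgeR). Of the transcription factor genes, SREBF2 was at 188.8, 194.7 and 186.7 CPM and fell to 152.6, 150.0 and 150.4 CPM (log2 −0.33, adjusted p = 1.51e-04, edgeR). SREBF1 was at 124.3, 144.6 and 130.9 CPM with empty vector and at 108.8, 117.4 and 103.6 CPM with MYB (log2 −0.28, adjusted p = 0.0362, edgeR). Both SREBF genes had groups that did not overlap, though the gap for SREBF1 was narrow. SCAP, the escort, did not pass the test at −0.026 (adjusted p = 0.837, edgeR). MYLIP, a ubiquitin ligase for lipoprotein receptors that is known as a target of the sterol receptor LXR, fell by 0.30.

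STARD4, which carries sterols between membranes (chromosome 5, 111496033 to 111512590, minus strand), was at 62.8, 61.5 and 66.3 CPM with empty vector and at 29.5, 29.1 and 32.7 CPM in the MYB libraries. Every MYB library was below every empty-vector library, at a fold of 0.48 (log2 −1.07, 95% interval −1.22 to −0.91, adjusted p = 5.64e-09, edgeR). TMEM97, a sterol-related membrane protein, did not pass the test at 0.065 (adjusted p = 0.381, edgeR). ABCA1 was at 0.300, 0.458 and 0.339 CPM with empty vector and at 0.203, 0.330 and 0.355 CPM with MYB, from 4 to 8 reads per library over the 9 libraries, and the groups overlapped. ABCG1 had 0 reads in 8 of the 9 libraries and 2 reads in an NMYB library. A count of 0 allows a level of up to 3 reads, here 0.122 to 0.182 CPM depending on the library, for counting error only.

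All 9 fatty acid and lipid synthesis genes fell, with a median of −0.485 on the log2 scale. ACSS2, which makes acetyl-CoA from acetate (chromosome 20, 34872146 to 34927962, plus strand), was at 99.9, 99.7 and 102.9 CPM with empty vector and at 48.4, 49.4 and 51.4 CPM in the MYB libraries. The spread within each group was a few CPM and the groups lay far apart (log2 −1.02, 95% interval −1.14 to −0.90, adjusted p = 2.05e-10, edgeR). FADS1, the delta-5 desaturase (chromosome 11, 61799625 to 61829318, minus strand), was at 621.0, 590.2 and 606.7 CPM and fell to 324.1, 323.4 and 326.7 CPM (log2 −0.90, 95% interval −0.98 to −0.82, adjusted p = 7.42e-12, edgeR). FADS2, the delta-6 desaturase beside it, was at 39.2, 36.3 and 35.4 CPM and fell to 28.02, 28.86 and 24.53 CPM (log2 −0.44, adjusted p = 1.68e-04, edgeR). Groups of both desaturase genes were apart. FASN, the fatty acid synthase, fell by 0.56, LPIN1, a phosphatidate phosphatase, by 0.56 and ELOVL6, an elongase, by 0.485. SCD, the delta-9 desaturase, fell by 0.41, ACLY, which splits citrate into acetyl-CoA, by 0.39 and ACACA, the acetyl-CoA carboxylase, by 0.17. Per kilobase of exon, SCD at 138.5, FASN at 122.4 and ACLY at 93.3 CPM per kb were the highest members in the empty-vector libraries, and INSIG2 at 2.40 CPM per kb the lowest of those tested.

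**Figure D2:**
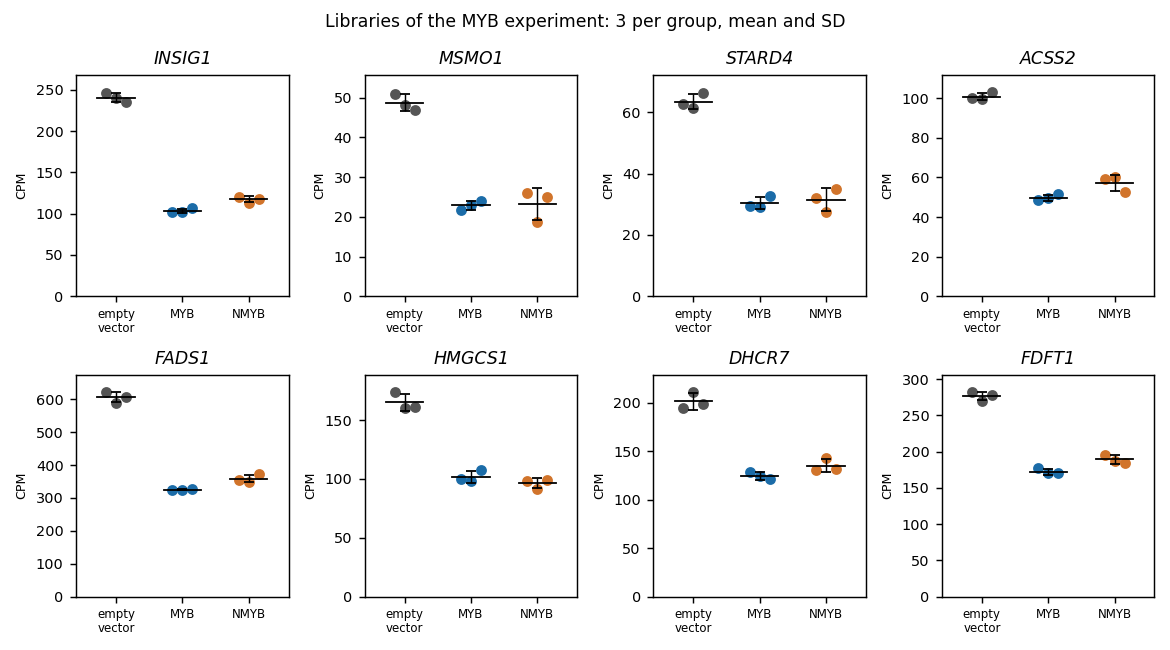
CPM (y axis, from 0) in each of the 9 libraries of the MYB experiment (points) for the 8 members with the largest change in the libraries labelled MYB, with the mean and SD of 3 libraries per group. In each panel the MYB and NMYB libraries lie below the 3 empty-vector libraries. INSIG1 stood at 235.2 to 246.2 CPM with empty vector and 101.5 to 106.4 CPM with MYB.

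Of the 29 calls, 26 held under all 12 alternatives, and the other 3 were lost when single libraries were left out. NSDHL lost its call without empty-vector library 1 (adjusted p = 0.0853, edgeR) and without MYB library 2 (0.0622). ACACA lost it without empty-vector library 1 (adjusted p = 0.0938) or 3 (0.0830) and without MYB library 2 (0.0779) or 3 (0.0581). SREBF1 lost it without empty-vector library 2 (adjusted p = 0.102) or 3 (0.0643), without MYB library 1 (0.0907) or 3 (0.134), and under library totals alone (0.0613).

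Since so many members moved together, their promoters were searched for motifs. Promoter windows of RefSeq (GRCh38.p14), from 250 bases before to 50 after a start, were matched by symbol for 32 of the 37 members, in 45 windows. The stretches below lie before INSIG1, MSMO1 and STARD4, the 3 members with the largest falls, and are shown for the CCAAT boxes in them. They end where the GENCODE 29 gene begins, run 5′ to 3′ on the gene's strand, and have CCAAT or its reverse complement ATTGG in capitals.
INSIG1 (chr7:155297628-155297775, plus strand): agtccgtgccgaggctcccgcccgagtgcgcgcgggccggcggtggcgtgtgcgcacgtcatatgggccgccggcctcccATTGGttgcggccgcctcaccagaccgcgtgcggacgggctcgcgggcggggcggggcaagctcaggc
MSMO1 (chr4:165327419-165327622, plus strand): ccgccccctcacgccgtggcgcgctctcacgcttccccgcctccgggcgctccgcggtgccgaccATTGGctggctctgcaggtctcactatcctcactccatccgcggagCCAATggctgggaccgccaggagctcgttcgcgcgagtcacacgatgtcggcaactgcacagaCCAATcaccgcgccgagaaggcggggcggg
STARD4 (chr5:111512591-111512785, minus strand): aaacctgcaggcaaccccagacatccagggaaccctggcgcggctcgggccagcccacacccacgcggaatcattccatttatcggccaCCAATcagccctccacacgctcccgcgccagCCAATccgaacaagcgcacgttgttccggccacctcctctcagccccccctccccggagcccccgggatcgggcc
INSIG1 has 1 such box in this stretch, MSMO1 3 and STARD4 2. CCAAT, the letters bound by NF-Y, which is known as a partner of SREBPs, was found on either strand in 60.0% of the member windows, in 23 of the 32 genes, and in 34.6% of all 35116 windows. FADS1, LPIN1, ELOVL6, INSIG2 and SREBF1 fell with MYB and had no CCAAT match in their windows. TMEM97, EBP, SC5D and TM7SF2 had a match and were not called with MYB. The GC box GGGCGG, known from Sp1, was in 88.9% of the member windows and in 45.0% of all. The sterol element core TCACNCCAC was found in 1 gene, SREBF2, where it matched TCACCCCAC at −133 to −125 from the start, and in 1.13% of all windows. An E-box, CACGTG, was in 5 of the genes (ABCA1, INSIG1, LSS, SC5D and SCAP), at 13.3% of member windows and 7.26% of all. The MYB core TAACNG was found in 2 genes, DHCR7 and MVK, at 4.44% of member windows and 20.8% of all. All motifs were searched on both strands and could overlap one another. Windows of the same gene can overlap too, as for ACLY and SC5D, and then count the same site more than once. Base composition was not matched between the member windows and all windows, and its part in these shares was not tested. Matches are letters in a window and say nothing of binding.

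In the libraries labelled NMYB, measured against the same empty-vector libraries, 25 of the 35 members fell and 2 rose, against 12.4% of all genes that fell and 12.6% that rose. The median over the members was −0.34 and over all genes 0.008 on the log2 scale. Groups did not overlap, with NMYB lower, in 24 members, and 19.5% of all genes showed this. Since the control libraries are shared with the MYB comparison, the values of the members are given side by side below and no measure of likeness is drawn from them.

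The leading genes were INSIG1, MSMO1, STARD4, ACSS2, HMGCS1, FADS1, DHCR7 and FDFT1. INSIG1 was at 120.7, 113.6 and 118.0 CPM in the NMYB libraries, all below the empty-vector libraries (log2 −1.03, 95% interval −1.13 to −0.94, adjusted p = 1.62e-11, edgeR, beside −1.22 for MYB). MSMO1 was at 25.95, 18.63 and 24.99 CPM, with library 2 the lowest of the 9 (log2 −1.065, adjusted p = 1.80e-07, edgeR, beside −1.09). STARD4 was at 32.0, 27.5 and 34.9 CPM (log2 −1.009, adjusted p = 1.90e-08, edgeR, beside −1.07). None of these 3 groups overlapped with the empty vector. ACSS2 was at 59.1, 60.0 and 52.6 CPM (log2 −0.82, adjusted p = 7.50e-09, edgeR, beside −1.02). HMGCS1 was at 98.55, 91.46 and 99.24 CPM, the only one of the 8 whose fitted fall was larger with NMYB (log2 −0.78, adjusted p = 7.59e-09, edgeR, beside −0.70). FADS1 was at 355.5, 349.0 and 371.5 CPM (log2 −0.76, adjusted p = 1.68e-10, edgeR, beside −0.90). These libraries too lay wholly below the empty vector. DHCR7 was at 130.4, 142.7 and 131.7 CPM (log2 −0.58, adjusted p = 1.97e-07, edgeR, beside −0.69). FDFT1 was at 195.6, 187.6 and 184.4 CPM (log2 −0.55, adjusted p = 4.49e-08, edgeR, beside −0.685).

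By role, 5 of 7 mevalonate genes, 6 of 11 sterol arm genes, 4 of 6 regulators and again all 9 fatty acid genes fell with NMYB. PMVK rose by 0.54 (14.2, 16.9 and 14.9 CPM, adjusted p = 3.41e-04, edgeR). TM7SF2, a sterol reductase, rose by 0.39 (adjusted p = 0.0223, edgeR), from 8.36, 9.57 and 10.2 CPM with empty vector to 11.4, 14.52 and 10.99 CPM. Among the regulators, INSIG2 was at 6.51, 6.29 and 8.96 CPM (log2 −0.38, adjusted p = 0.0269, edgeR) and SREBF2 at 145.4, 170.6 and 150.6 CPM (log2 −0.29, adjusted p = 5.59e-04, edgeR), both lower without overlap. SREBF1 did not pass the test, with 119.4, 149.5 and 118.3 CPM over the range of the empty vector (−0.048, 95% interval −0.24 to 0.14, adjusted p = 0.740, edgeR). MVD at −0.25 and NSDHL at −0.052, both called with MYB, were not called with NMYB (adjusted p = 0.108 and 0.538, edgeR). In NMYB library 2 MVD (99.4 CPM), LSS (114.4 CPM), SREBF1 (149.5 CPM), SCAP (155.0 CPM) and FASN (981.1 CPM) stood above the other NMYB libraries.

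Of these 27 calls, 20 held under all 12 alternatives, and 7 were lost without single libraries. LSS (log2 −0.19) lost its call without empty-vector library 2 (adjusted p = 0.0521, edgeR) or 3 (0.113), without NMYB library 1 (0.118) or 3 (0.1255), and with only the groups compared in the fit (0.0502). INSIG2 lost it without empty-vector library 1 (0.0736) or 3 (0.0640) and without NMYB library 1 (0.117) or 2 (0.0840). TM7SF2 lost it without empty-vector library 1 (0.107) and without NMYB library 2 (0.0950). FADS2 lost it without empty-vector library 1 (0.0679) and without NMYB library 3 (0.0552). MVK and HSD17B7 lost it without empty-vector library 3 (0.0573 and 0.0520), and FASN without NMYB library 3 (0.0747).

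Set directly against each other, NMYB and MYB libraries gave 0 calls among the 35 members, where 1.14% of all genes were called. DESeq2 also called 0 members, a fit with no filter on low counts called SREBF1 higher, and 15 members had an unadjusted p below 0.05, against 17.7% of all genes. The fitted difference was positive, that is, higher with NMYB, in 30 of 35 members and in 8715 of all 15823 genes. The members' median was 0.094 on the log2 scale against 0.02 over all genes. All 3 NMYB libraries were above all 3 MYB libraries in 13 members and below them in 0, where 13.1% and 9.75% of all genes showed this. INSIG1 was nearest to the threshold, at 0.185 (95% interval 0.088 to 0.28, adjusted p = 0.05595, edgeR), followed by FADS1 at 0.14 (adjusted p = 0.0725) and ACSS2 at 0.20 (adjusted p = 0.0832). Among all calls the share higher with NMYB was 45.3%, and it moved to 25.3% under library totals alone. Without NMYB library 2, INSIG1 and FADS1 were called, and without NMYB library 3, ACSS2 was. The 95% intervals of the difference reached no farther than −0.305 and 0.507 in any member, and those limits belong to CYP51A1 and TM7SF2.

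Genes that work beside the members were read from 5 further lists, whose counts stand beside 9.62% of all genes that rose and 12.7% that fell with MYB, and 12.6% and 12.4% with NMYB. In the libraries labelled MYB, prenyl, dolichol and redox partners gave 0 higher and 1 lower of 15 (ACAT1, the mitochondrial thiolase, at −0.23), with a median of 0.019. Of 16 genes for SREBP processing and sterol sensing, 3 rose and 5 fell, with a median of −0.064. Among them SEC24D, a coat protein of vesicles leaving the endoplasmic reticulum, fell by 0.26, while MBTPS2, the protease that frees SREBPs, rose by 0.29. For fatty acid activation, elongation and glycerolipid assembly, 4 rose and 8 fell of 23, with a median of −0.11. ELOVL7, an elongase, fell by 0.91, ACSL4, which activates long-chain fatty acids, by 0.49 and ME1, which supplies NADPH, by 0.50, and DGAT2, a triglyceride synthesis enzyme, rose by 0.63. Fatty acid oxidation had 1 higher and 6 lower of 16 (median −0.14), among them HADHA at −0.235. Sterol transport, storage and LXR partners had 1 higher and 7 lower of 20 tested (median −0.066), led by SCARB1, a lipoprotein receptor, at −0.645 and PLIN2, a coat protein of lipid droplets, at −0.46. With NMYB, set against the same controls, the lists gave 1 and 2, 1 and 6, 4 and 9, 2 and 3, and 2 and 6 higher and lower genes, in the order above. AGPAT2, an acyltransferase of glycerolipid synthesis, rose by 0.76 and LRP8, a lipoprotein receptor, fell by 0.43 with NMYB. The members' medians of −0.44 and −0.34 stand beside list medians of −0.14 to 0.019 with MYB and −0.10 to 0.052 with NMYB.

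The comparison of 34kn overexpression with its controls asked what this enhancer RNA changes. No member passed the test, as was true of all 16116 genes tested (0.0% called, edgeR). An unadjusted p below 0.05 was found for 16 of the 35 members and for 23.3% of all genes, and the members' median was 0.02 on the log2 scale. DESeq2 called 5 members lower (MVD, LSS, TM7SF2, SREBF1 and FASN) and SC5D higher, beside 5.91% of all genes called in either direction. The bins of TM7SF2 are joined with those of VPS51. Their mean was 144.0 CPM in the 34kn controls, beside 9.36 CPM for TM7SF2 with empty vector in the gene table. The bin values can therefore not be assigned to TM7SF2 alone. The libraries did not overlap in 20 members, 10 lower and 10 higher, beside 14.8% lower and 14.3% higher over all genes. FASN, joined to no other gene in the bins, was at 1217, 1130 and 1141 CPM in the controls and at 974.3, 1006 and 959.8 CPM with 34kn, wholly lower but not called (log2 −0.25, adjusted p = 0.0668, edgeR). INSIG1 was at 207.3, 230.9 and 217.3 CPM in the controls and at 232.8, 241.5 and 233.4 CPM with 34kn (log2 0.10, adjusted p = 0.322, edgeR). HMGCS1 was at 111.2, 118.8 and 116.6 CPM and at 135.2, 131.0 and 127.5 CPM (log2 0.18, adjusted p = 0.129, edgeR). Both were slightly and wholly higher with 34kn. Of the controls, library 1 had the highest MVD, at 194.8 CPM beside 122.4 and 139.3, and the lowest IDI1, at 71.5 CPM beside 85.3 and 83.3. The call count rested on single libraries. Without control library 2, 9 members were called lower and 5 higher, beside 2982 of all 16528 genes called in either direction. Without control library 1, 3 members were called lower (TM7SF2, SREBF1 and FASN), beside 447 of all 16495 genes called in either direction.

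With 34kp overexpression, 7 of 35 members fell and 1 rose, against 1.72% of all 16662 genes that fell and 0.63% that rose (edgeR). Those that fell were HMGCS1 and IDI1 of the mevalonate arm, FDFT1, MSMO1 and HSD17B7 of the sterol arm, INSIG1, and ACSS2. FADS1 rose. An unadjusted p below 0.05 was found for 14 members and for 17.9% of all genes. DESeq2 called 9 members lower, with MVK and STARD4 added, and FADS1 higher, beside 5.74% of all genes called in either direction. The median over the members was −0.066 on the log2 scale and over all genes −0.005. Under library totals alone the share of higher genes among all calls moved from 26.79% to 15.5%. In 13 members every 34kp library was below every control library (12.9% of all genes) and in 2 above (10.9%). The summed erythroid markers were at 1817 to 1899 CPM in the controls and 1788 to 1810 CPM with 34kp, and the fibroblast and epithelial markers, of which 1 of 5 tested fell, at 127.3 to 129.8 and 116.2 to 128.1 CPM. The 34kp libraries also stood apart from their controls in the counting itself: reads set aside for low alignment quality made up 4.46 to 4.64% with 34kp and 7.15 to 8.35% in the controls, and ambiguous reads 0.0215 to 0.0225% and 0.0158 to 0.0171%. The part of the markers and of these shares in the result was not tested.

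MSMO1 was at 121.1, 120.9 and 99.5 CPM in the controls and at 50.3, 56.4 and 69.2 CPM with 34kp. The groups did not overlap, at a fold of 0.51 (log2 −0.96, 95% interval −1.24 to −0.69, adjusted p = 0.00309, edgeR). INSIG1 was at 699.0, 763.3 and 599.9 CPM in the controls and at 386.8, 403.9 and 436.9 CPM with 34kp (log2 −0.75, 95% interval −0.95 to −0.555, adjusted p = 0.00234, edgeR). HMGCS1 was at 390.6, 379.9 and 331.1 CPM and fell to 201.6, 217.1 and 243.0 CPM (log2 −0.74, 95% interval −0.94 to −0.54, adjusted p = 0.00242, edgeR). In all 3 genes control library 3 was the lowest control and 34kp library 3 the highest treated one. These were the members called under all 13 alternatives.

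HSD17B7 was at 19.95, 20.86 and 14.33 CPM in the controls and at 12.03, 11.86 and 11.65 CPM with 34kp (log2 −0.64, adjusted p = 0.0437, edgeR). IDI1 was at 159.3, 154.8 and 135.6 CPM and at 96.55, 104.6 and 124.2 CPM (log2 −0.47, adjusted p = 0.0410, edgeR). ACSS2 was at 121.6, 130.5 and 116.4 CPM and at 100, 92.0 and 88.9 CPM (log2 −0.40, adjusted p = 0.0335, edgeR). In these 3 genes the groups were apart by a smaller margin. FDFT1 was at 448.8, 483.1 and 450.5 CPM and at 359.3, 357.5 and 343.4 CPM (log2 −0.39, adjusted p = 0.0119, edgeR). FADS1, whose bins carry a name joined with the microRNA gene MIR1908, was at 656.5, 664.8 and 693.5 CPM in the controls and at 883.7, 890.6 and 843.3 CPM with 34kp (log2 0.37, 95% interval 0.24 to 0.51, adjusted p = 0.0104, edgeR). All 3 treated libraries were higher for FADS1.

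Other members stood near 0 or below the threshold. Of the fatty acid genes FASN was at 0.002, ACLY at −0.013, ACACA at 0.032 and SCD at −0.066 on the log2 scale, with adjusted p from 0.637 to 0.996. STARD4 at −0.42 (adjusted p = 0.100) and MVK at −0.47 (adjusted p = 0.0596, edgeR) were lower in all 3 libraries without passing. SREBF1 at 0.040, SREBF2 at −0.12 and SCAP at 0.029 did not pass either. The lower level ran along the exons of the called genes: 17 of 17 INSIG1 bins, 9 of 9 MSMO1 bins, 19 of 20 HMGCS1 bins and 37 of 40 FDFT1 bins had a lower mean CPM with 34kp. For FADS1, 39 of 48 bins were higher. Bins of a gene come from the same libraries, so these are counts and no test.

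Calls that did not hold under every alternative were those of IDI1, FDFT1, HSD17B7, FADS1 and ACSS2. Without control library 1, adjusted p was 0.1485 for IDI1, 0.152 for HSD17B7, 0.0659 for FADS1 and 0.115 for ACSS2 (edgeR). Without control library 2 it was 0.235 for IDI1, 0.135 for FDFT1, 0.252 for HSD17B7, 0.1255 for FADS1 and 0.238 for ACSS2. Without control library 3 it was 0.0706 for IDI1, 0.05225 for FDFT1 and 0.0855 for ACSS2. Without 34kp library 2 it was 0.219 for IDI1, 0.101 for FDFT1, 0.200 for HSD17B7, 0.0871 for FADS1 and 0.204 for ACSS2. Taking the highest bin of each gene in place of the sum gave 0.0507 for IDI1, 0.0575 for FDFT1, 0.1325 for HSD17B7 and 0.101 for ACSS2.

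**Figure D3:**
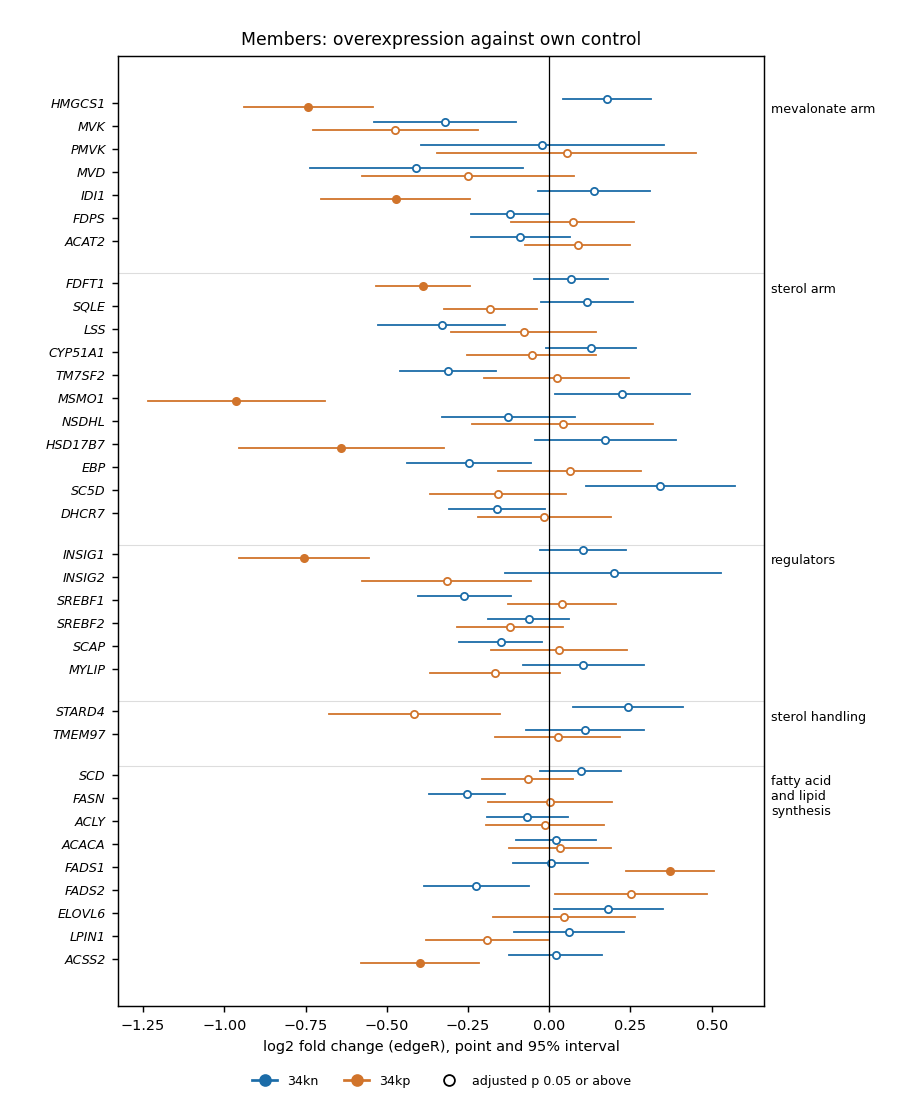
Log2 fold change of overexpression against its own controls (x axis) for the 35 members (y axis, grouped by role), for 34kn (blue) and 34kp (orange), with 3 libraries per group. Points are edgeR estimates, bars are 95% intervals, and filled points passed an adjusted p of 0.05. The filled points are 8 members of the 34kp experiment, 7 to the left of 0 and FADS1 to the right.

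The difference between the 34kn and 34kp effects was fitted as an interaction in the 12 bin libraries together. It was called in 10 of 35 members, 9 higher and 1 lower with 34kn relative to 34kp, against 2.83% of all 17323 genes called higher and 3.53% lower (edgeR). MSMO1 differed by 1.19 (95% interval 0.83 to 1.545, adjusted p = 0.00118), HMGCS1 by 0.92 (adjusted p = 3.10e-04) and INSIG1 by 0.86 (adjusted p = 6.66e-04, edgeR). HSD17B7 differed by 0.81, STARD4 by 0.66, IDI1 by 0.61, SC5D by 0.50, FDFT1 by 0.46, ACSS2 by 0.42 and FADS1 by −0.37. Of these, HMGCS1, FDFT1, MSMO1, INSIG1 and FADS1 were called under all 17 alternatives. Among all genes the share of higher calls was 44.56%, and it moved to 59.84% under library totals and to 54.89% under upper-quartile scaling.

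The other 5 differences were lost without single libraries. IDI1 was lost without 34kn library 1 (adjusted p = 0.0605, edgeR) or 2 (0.0525), without 34kp control 1 (0.0548) or 2 (0.0592), and without 34kp library 2 (0.0550). HSD17B7 was lost without 34kp control 2 (0.0522). STARD4 was lost without 34kn control 3 (0.0502), 34kn library 1 (0.0623), 34kp control 1 (0.0533) or 34kp library 2 (0.05001). ACSS2 was lost without 34kn control 3 (0.0507), 34kn library 2 (0.0747) or 3 (0.0605), 34kp control 1 (0.0546) or 2 (0.0817), or 34kp library 2 (0.0673). SC5D, at an adjusted p of 0.0446, was lost without 34kn control 1 (0.104) or 3 (0.0984), without 34kn library 1 (0.127), 2 (0.0748) or 3 (0.0794), without 34kp control 1 (0.108), 2 (0.0863) or 3 (0.0706), and without 34kp library 1 (0.0812) or 2 (0.113).

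The control levels of the experiments differed for the same genes. INSIG1 was at 207.3 to 230.9 CPM in the 34kn controls and at 599.9 to 763.3 CPM in the 34kp controls, a ratio of means of 3.15. For HMGCS1 the controls were at 111.2 to 118.8 and at 331.1 to 390.6 CPM, a ratio of 3.18. MSMO1 had a ratio of 2.44, IDI1 of 1.87, INSIG2 of 1.68 and SQLE of 1.58. With 34kp overexpressed, HMGCS1 (201.6 to 243.0 CPM), INSIG1 (386.8 to 436.9 CPM) and IDI1 (96.55 to 124.2 CPM) stood above the 34kn controls in all 3 libraries. The other members that fell with 34kp did not. FDFT1 (343.4 to 359.3 CPM against 368.3 to 375.6) and HSD17B7 (11.65 to 12.03 CPM against 13.02 to 14.42) lay wholly below the 34kn controls. MSMO1 and ACSS2 overlapped with them. At the other end PMVK had a ratio of 0.563, FDPS of 0.699, FADS2 of 0.708 and LSS of 0.734. The FADS2 bins are joined with those of FEN1, so that ratio covers both genes. FASN at 1.20, SCD at 0.885 and ACLY at 0.957 were nearer to 1. Over the 35 members, 15 were wholly higher in the 34kp controls, 10 wholly lower and 10 overlapping, with a median ratio of 1.05. Over all genes 25.4% were wholly higher and 24.0% wholly lower, with a median ratio of 1.011. The summed level of 6 erythroid markers was also higher in the 34kp controls, at 1817 to 1899 CPM against 1435 to 1474 CPM, and its part was not tested. The experiments are different sets of libraries, and the labels do not say whether their controls differ in cells, in handling or in sequencing. The source of the difference between the controls can therefore not be told. Since the 34kp effect and the control ratio both use the 34kp controls, no relation between them was computed.

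**Figure D4:**
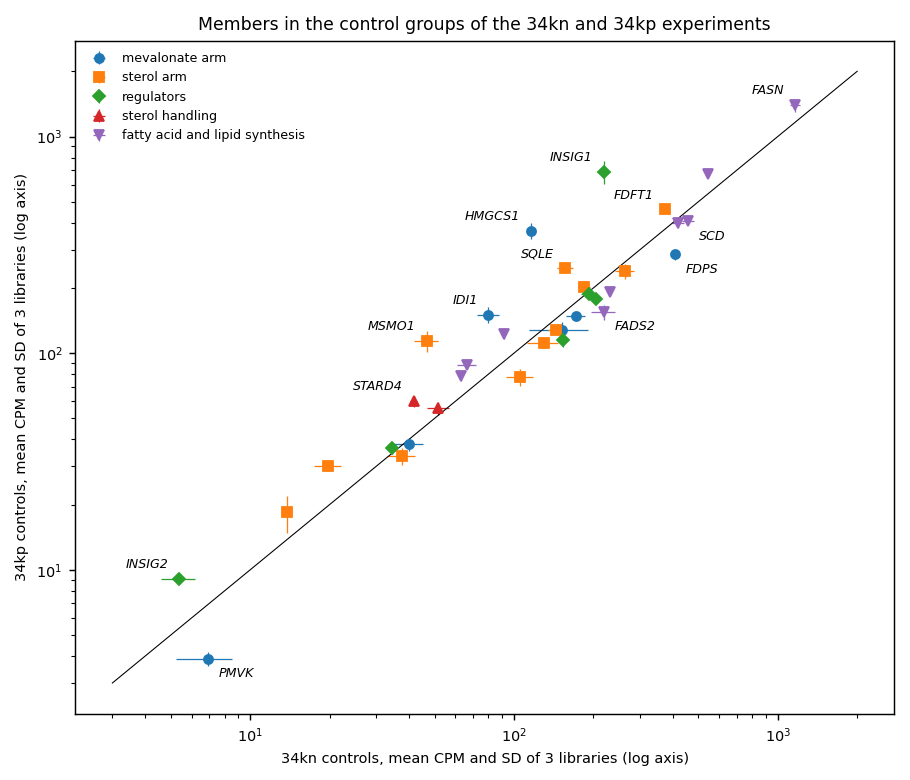
Mean CPM of the 35 members in the 34kn controls (x axis, log scale) and in the 34kp controls (y axis, log scale), with SD bars over 3 libraries and the line of equal levels. HMGCS1, INSIG1, MSMO1 and IDI1 lie well above the line, and FDPS, FADS2 (joined with FEN1 in the bins) and PMVK below it.

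**Figure D5:**
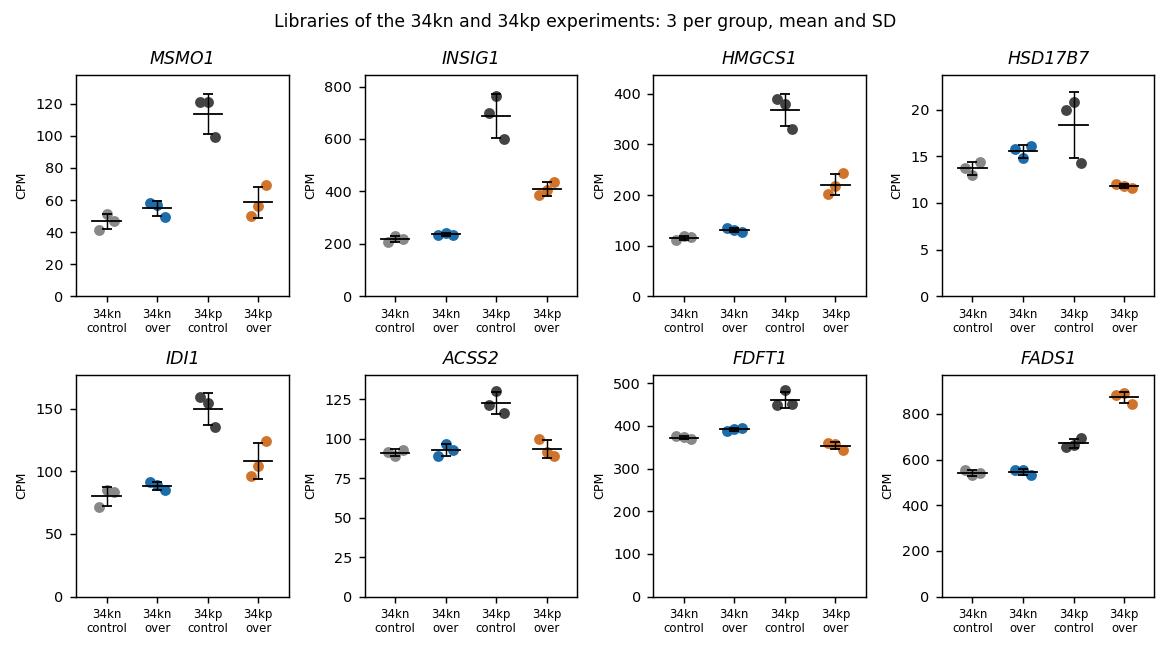
CPM (y axis, from 0) in each of the 12 libraries of the 34kn and 34kp experiments (points) for the 8 members called with 34kp, with the mean and SD of 3 libraries per group. The 34kp controls have the highest mean for 7 of the genes, and the 34kn groups lie close together. For FADS1 the 34kp libraries are the highest group, at 843.3 to 890.6 CPM.

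The MYB experiment shares no library with the 34kp or 34kn experiments. Across the 35 members Pearson's r between the log2 fold changes was 0.56 for MYB and 34kp and 0.59 for NMYB and 34kp. With 34kn it was −0.26 for MYB and −0.43 for NMYB. These are descriptions across genes, which are not independent, in a shared cell line and from differently counted files. The MYB and NMYB values share the empty-vector libraries and are set against the same enhancer RNA values, so they are not separate results. No correlation over all genes was computed, so whether the likeness is particular to the members cannot be told. For CYP51A1, TM7SF2, EBP, FADS1 and FADS2 the bin values include neighbouring genes. HMGCS1, INSIG1 and MSMO1 were lower in both experiments, while FADS1 fell by 0.90 with MYB and rose by 0.37 with 34kp, and PMVK rose with MYB and was at 0.054 with 34kp.

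Exon usage was tested on the bins, comparing the fold change of each bin with that of its gene. With 34kn, 10 of 1036 member bins passed an adjusted p of 0.05 (edgeR), against 0.795% of all 216197 bins, and all 10 were used less. They belong to FADS1 (4 bins), FASN (2 bins), ACLY, SQLE, LPIN1 and FDFT1. The direction of the called bins over all genes was not counted, so whether the lean to lower usage is particular to the members cannot be told. FADS1, SQLE, ACLY and SCD passed at the level of genes (Simes' method), 4 of 35 against 7.24% of all genes. Bin 2 of FADS1 had 457, 278 and 363 counts in the controls and 186, 182 and 238 with 34kn, a usage change of −0.87 on the log2 scale (adjusted p = 0.00118, edgeR). Bin 64 of FADS1 had 687, 442 and 490 counts against 284, 320 and 337 (−0.80, adjusted p = 0.00171, edgeR), and bin 63 had 580, 386 and 404 against 235, 273 and 284 (−0.80, adjusted p = 0.00214, edgeR). Control library 1 had the highest count in each. Bin 30 of ACLY had 342, 195 and 197 counts in the controls and 152, 130 and 138 with 34kn (−0.74, adjusted p = 0.0136, edgeR). Bin 4 of SQLE had 214, 70 and 93 counts and 55, 61 and 56 with 34kn (−1.25, adjusted p = 0.0209, edgeR). Here too control library 1 stood apart from the other controls. Without control library 1, 5 of 1054 member bins were called, beside 351 of all 222567 bins. Without control library 2 it was 70 of 1069, beside 8399 of all 224497. Without 34kn library 1 or 2, 0 member bins were called, beside 360 of all 225471 and 255 of all 224694 bins. Without 34kn library 3 it was 4 of 1069, beside 718 of all 224789. With 34kp, 0 of 1032 member bins passed, with 24 at an unadjusted p below 0.05 and 0 by limma's diffSplice, where 0.00862% of all 220442 bins were called. The bin files used here give bin numbers without positions, so these bins are not placed on transcripts.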

How the data were processed

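RNA of 21 K562 libraries was analysed from raw counts that the authors deposited, as gene counts for 9 libraries and exon-bin counts for 12. The submitters' processing notes name Trimmomatic 0.93, STAR 2.7.10a, HISAT2 2.2.1, featureCounts 2.0.1 and the build GRCh38. They name no annotation release or strand setting, so overlapping and antisense genes cannot be told apart. In the bins 32 members had a name of their own, and CYP51A1, TM7SF2, EBP, FADS1 and FADS2 shared a joined name with neighbouring genes, so their bin and gene levels are not alike. Bin lines that name no gene were left out.

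Bin counts were summed per gene name. Tests used edgeR 4.0.16 in R 4.3.3 (TMM, filterByExpr with a minimum count of 10, robust quasi-likelihood, two-sided, Benjamini-Hochberg adjustment over all genes, threshold 0.05), with 9 libraries in the MYB fit, 6 in each enhancer RNA fit and 12 in the interaction. Exon usage used diffSpliceDGE, on genes with several bins. DEXSeq, the tool of the design text, was not run. Alternatives were DESeq2 1.42.0, limma 3.58.1 for bins, other scalings, no filter, a replicate block, other sample sets and leaving out each library. The scripts were tested on simulated counts. Over the 21 pairs of replicates, chi-square per degree of freedom was at least 1.59, and every library was kept. In the gene table it was at most 8.04. The highest values were 51.7 for 34kp libraries 1 and 3 and 45.75 for 34kn controls 1 and 2. In the bins a read over several bins counts in each, so there the value cannot show a difference beyond sampling noise.

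The members and all lists were chosen with earlier results of these data known. Members named in full were up to 8 called members per comparison with the largest absolute change, and the pairs INSIG1 and INSIG2, SREBF1 and SREBF2, FADS1 and FADS2, and ABCA1 and ABCG1. From other lists up to 4 called genes were eligible, and up to 5 bins per experiment. Coordinates and exon lengths are those of GENCODE 29 on GRCh38. Marker sums of each list were: fibroblast and epithelial 63.7 to 77.1 CPM (gene counts) and 103.4 to 129.8 CPM (bins), with 3 of the listed genes above 1 CPM in each group. In the bins, 6 erythroid markers summed to 1404 to 1899 CPM and monocyte markers to 11.8 to 25.5 CPM. Proteins were not printed.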

Additional observations from a re-analysis of the deposited data

Results flagged for a closer look

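Differences between the 34kn effect and the 34kp effect, each on the log2 scale and from the interaction test (edgeR, adjusted p below 0.05), were found for 10 of the 35 members. The difference was 1.19 for MSMO1 (34kn 0.23 from controls and 34kp −0.96), 0.92 for HMGCS1 (0.18 and −0.74) and 0.86 for INSIG1 (0.10 and −0.75). For HSD17B7 it was 0.81 (0.17 and −0.64), for STARD4 0.66 (0.24 and −0.42), for IDI1 0.61 (0.14 and −0.47) and for SC5D 0.50 (0.34 and −0.16). FDFT1 differed by 0.46 (0.067 and −0.39), ACSS2 by 0.42 (0.020 and −0.40) and FADS1, in the other direction, by −0.37 (0.004 and 0.37). Of the 34kn values none passed its own test. For 9 of these genes, all but HSD17B7, the 34kp controls stood 1.24 to 3.18 times as high as the 34kn controls without overlap. For HSD17B7 the controls overlapped at a ratio of 1.34. Over all genes 25.4% were wholly higher in the 34kp controls. The interaction by which these genes were picked uses both control groups, so the control ratios are not independent of it. The part of the control levels in these differences was not tested.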

How the results depend on the processing

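No called member reversed its direction: of the values for single members under alternatives, 866 kept their call and 80 lost it, and of the counts 197 stayed within 1.5 times and 94 did not. Counts of members and of all genes moved most where few were called, and the cause was not tested except where fewer libraries or genes enter the fit. NMYB against MYB gave 1 member higher with no filter on low counts and 0 to 2 without single libraries. Over all genes it gave 656 calls with no filter, 60 with only the groups compared and 0 to 323 without single libraries. NMYB against empty vector gave 1 to 2 members higher without single libraries. With 34kn, members called lower numbered 5 with DESeq2, 8 with no filter and 0 to 9 without single libraries. Those called higher numbered 1 with DESeq2, with no filter and with the highest bin of each gene, and 0 to 5 without single libraries. All genes called with 34kn numbered 952 with DESeq2, 1572 with no filter, 133 with the highest bin and 0 to 2982 without single libraries. With 34kp, 3 members were lower with the highest bin and 3 to 9 without single libraries, and 0 to 2 were higher. Over all genes 34kp gave 957 calls with DESeq2, 997 with no filter, 193 with the highest bin, 817 with all 12 libraries and 46 to 1175 without single libraries. The interaction gave 3 members lower with DESeq2, 2 with no filter and 1 to 7 without single libraries, and 5 to 11 higher. Its calls over all genes were 1898 with DESeq2, 2085 with no filter and 380 to 2747 without single libraries. For exon usage with 34kn, limma called 2 member genes, and leaving out single libraries gave 0 to 70 member bins, 0 to 18 member genes and 255 to 8399 bins in all. With 34kp it gave 0 to 1 member bins, 0 to 1 member genes and 4 to 60 bins in all.

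Replicate numbers are shared between groups, and the labels do not say whether they pair the libraries. Same-numbered libraries had correlations of their deviations from −0.435 to 0.227, and in no comparison were all above 0.1. With 3 libraries per group these correlations cannot show that pairing is absent. With the replicate number as a block, NMYB against MYB called 7 members higher (FDPS, FDFT1, LSS, INSIG1, SREBF1, FADS1 and ACSS2) and 1184 genes in all. The block left 3 members lower and 0 higher with 34kp, and 71 genes in all. There the adjusted p with the block was 0.1765 for IDI1, 0.1195 for FDFT1, 0.135 for HSD17B7, 0.122 for FADS1 and 0.178 for ACSS2 (edgeR). The interaction gave 651 genes with the block and SC5D an adjusted p of 0.0788, and exon usage with 34kp gave 8 bins in all. Against empty vector, NMYB with the block gave 26 members lower, with MVD added, and exon usage with 34kn gave 9 member bins and 3 member genes.

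Depth limits ABCA1, at 4 to 8 counts per library in the gene table and 1 to 15 in the bins, and ABCG1, at 0 to 2 counts.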

Other observations

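None of the 5 further lists held a gene called in the 34kn or the 34kp experiment alone (edgeR, 0 of 90 genes tested in each). At an unadjusted p below 0.05 there were 30 with 34kn, beside 23.3% of all genes, and 15 with 34kp, beside 17.9%, and DESeq2 called 3 higher and 4 lower with 34kn and 2 higher and 1 lower with 34kp, beside 5.91% and 5.74% of all genes in either direction. Between the experiments, the interaction was called for 5 of these 90 genes, 4 higher and 1 lower, where 2.83% of all genes were called higher and 3.53% lower, so the share is near that of all genes. Among them SEC24D, a vesicle coat protein, differed by 0.52 (adjusted p = 0.0345, edgeR). ACSL3, which activates fatty acids at lipid droplets, differed by 0.45 (adjusted p = 0.0305), and CPT2, the inner carnitine palmitoyltransferase of mitochondria, by 0.41 (adjusted p = 0.0327). VLDLR, a lipoprotein receptor, differed by 2.87 with an SE of 0.789 (adjusted p = 0.0427). In the MYB experiment the same gene rose by 1.31 with NMYB, with an SE of 0.469 (adjusted p = 0.0473, edgeR).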
